A study of Mus musculus with 4 samples.

Results

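The genes of oxidative phosphorylation were followed in mouse P14 CD8+ T cells that carried an empty vector or a vector for overexpression of Hic1, a zinc finger transcriptional repressor. Members were genes of the count table picked by a rule on symbols for the 5 respiratory complexes. It took symbols that begin with Nduf, Uqcr or Atp5, the genes Sdha to Sdhd, and Cox4 to Cox8 with a letter a, b, c or i. It also took the mitochondrial genes mt-Nd, mt-Co, mt-Cytb and mt-Atp. Of the assembly factors, only those named Ndufaf enter. This gave 111 of 55401 genes, 98 in nuclear chromosomes and 13 in the mitochondrial genome. The rule itself reads symbols and no values. Symbols decide the complex here, so Ndufa4, now known as a subunit of complex IV, is counted with complex I. Cyc1, a subunit of complex III, falls outside the rule and is listed with the electron carriers. Symbols also admit pseudogenes: Cox6c2, Ndufb4c, Ndufs6b and Ndufa11b are annotated as processed pseudogenes.

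P14 cells bear a transgenic T cell receptor for a peptide of lymphocytic choriomeningitis virus (LCMV), and all libraries came from the spleen of mice infected with the Armstrong strain. The sample labels place the harvest 32 days after infection and the series text places it at 7 days. Each group had 2 Smart-seq2 libraries, prepared from polyadenylated RNA in 5 µl of lysate of about 1000 cells that had been sorted and sorted again. Total gene counts were 4017346 and 3941364 for empty vector libraries 1 and 2 and 7501285 and 8839317 for Hic1 vector libraries 1 and 2. The sources used here do not give host genotype, age or the marker used to sort vector-bearing cells. The labels do not say that the libraries of a group came from separate mice. Libraries numbered 1 held 1885 and 3590 counts of the X inactivation RNA Xist against 0 and 3 in those numbered 2, and the Y-linked gene Eif2s3y was the other way round (0 and 0 against 396 and 951). Hence the spread within a group includes a difference in sex-linked transcripts, and differences within each number are given below beside the fit.

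All 8 of 8 fixed CD8 T cell markers were present, with a summed level of 5703 and 5920 CPM (counts scaled to library size after TMM) with the empty vector and 6254 and 6994 CPM with the Hic1 vector. CD4 T cell markers summed to at most 0.966 CPM, and the platelet genes Pf4 and Ppbp were at 0 in every library. The 8 myeloid markers summed to 178.2 and 191.8 CPM with the empty vector and 159.8 and 208.9 CPM with the Hic1 vector. The 2 stroma markers summed to 14.0 and 19.4 CPM against 26.9 and 19.7 CPM. The summed level of 5 B cell markers was 78.7 and 88.0 CPM against 277.8 and 211.6 CPM, most of it from Ighm (253, 338, 1690 and 1730 counts), while Ms4a1 had 0, 2, 0 and 1 counts. The 2 natural killer cell markers summed to 29.2 and 44.0 CPM against 58.4 and 70.5 CPM, and 0 of them were called. The part of these differences in the results below was not tested. Hic1 itself had 3 and 5 counts with the empty vector and 314 and 161 with the Hic1 vector, 0.983 ± 0.366 against 31.1 ± 18.2 CPM (SD, n = 2 each). Its log2 fold change was 4.58 ± 0.538 (SE), and edgeR's quasi-likelihood F test gave an adjusted p of 0.00699 (Benjamini-Hochberg, 11676 genes tested). Without empty vector replicate 1 the value was 4.34 and Hic1 was not called.

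Oxidative phosphorylation passes electrons from NADH through complex I, or from succinate through complex II, to coenzyme Q, then through complex III, cytochrome c and complex IV to oxygen. Complexes I, III and IV pump protons across the inner mitochondrial membrane, and complex V, the ATP synthase, makes ATP as the protons return. All complexes but complex II are built from products of both genomes, the mitochondrial genes supplying hydrophobic core subunits. Naive and memory CD8 T cells are known to rely on this pathway, while effector cells take up more glucose for glycolysis.

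Some mitochondrial genes have near-identical copies in the nucleus. A stretch of the mouse mitochondrial genome lies copied in nuclear chromosome 1 (minus strand, mm10), where GENCODE M21 annotates its genes as separate genes. The pairs of stretches printed here, 60 bases each from the transcript sequences of that release, show what a read would have to tell apart, and a capital marks the base that differs.
mt-Co2 (bases 311 to 370 of the gene at MT:7013-7696): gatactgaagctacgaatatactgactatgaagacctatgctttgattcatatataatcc
Gm28661 (bases 311 to 370 of its copy at chr1:24614885-24615565): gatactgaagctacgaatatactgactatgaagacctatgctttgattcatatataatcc
mt-Nd3 (bases 1 to 60 of the gene at MT:9459-9806): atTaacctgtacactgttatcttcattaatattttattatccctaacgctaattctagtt
Gm28438 (bases 1 to 60 of its copy at chr1:24612775-24613119): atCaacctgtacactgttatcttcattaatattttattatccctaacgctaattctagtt
Over 681 aligned bases mt-Co2 and Gm28661 had 0 mismatches, and over 345 aligned bases mt-Nd3 and Gm28438 had 1 mismatch. The share of a gene's 50-base windows found in another annotated gene was 100% for mt-Co2, 99.5% for mt-Atp6, 99.9% for mt-Co3, 98.8% for mt-Nd4l, 98.0% for mt-Nd3, 62.2% for mt-Nd4 and 51.1% for mt-Co1. It was 8.19% for mt-Nd2, 7.61% for mt-Nd5 and 0 for mt-Nd1, mt-Nd6 and mt-Cytb.

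Counts at or near 0 were listed for 5 mitochondrial genes. They include mt-Atp8, with 0% of windows shared with annotated genes, but not mt-Nd3 with 98.0%. mt-Co2, a catalytic subunit of complex IV, and mt-Nd4l, a membrane subunit of complex I, had 0 counts in all 4 libraries. mt-Co3, another complex IV core subunit, had 0, 3, 1 and 0 counts and mt-Atp6, the proton channel subunit of complex V, had 0, 1, 2 and 0, empty vector libraries first. mt-Atp8, a small complex V subunit whose coordinates overlap those of mt-Atp6, had 0, 0, 0 and 2. These 5 genes did not pass the filter on low counts. The copies on chromosome 1 of mt-Co2, mt-Nd4l, mt-Co3 and mt-Atp6 had at most 8 counts in a library, and mt-Atp8 shares no window with another annotated gene. Stretches of chromosome 1 without an annotated gene were not searched, so the 0% does not show that mt-Atp8 lacks a nuclear copy. mt-Atp8 (MT:7766-7969) starts between mt-Co2 and mt-Atp6, whose copies on chromosome 1 are neighbours (24614885 to 24615565 and 24613974 to 24614651). Whether mt-Atp8 has a copy there, and whether copies lowered any of these counts, was not tested. The sources used here do not say how reads that map to several places were counted. Without these genes, complex V is represented by nuclear genes alone and the mitochondrial part of complex IV by mt-Co1 alone.

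**Figure D1:**
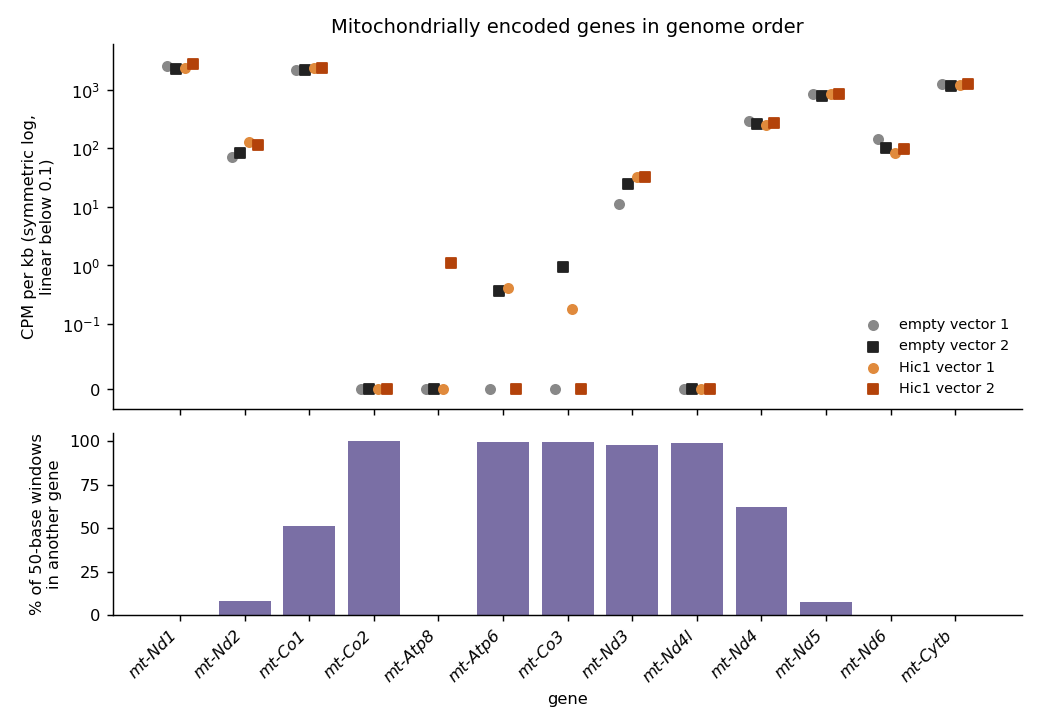
Levels of the 13 mitochondrially encoded genes in genome order (upper panel, CPM per kb of transcript on a symmetric log scale, 1 point per library) above the share of each gene's 50-base windows that occur in another annotated gene (lower panel, percent). mt-Co2, mt-Atp6, mt-Co3 and mt-Nd4l, with at least 98.8% of windows shared, lie at or near 0, and mt-Atp8, with 0 shared, does too. Stretches without an annotated gene were not searched for shared windows.

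Across the module no gene passed edgeR's test in the main fit, which was by group with the filter on low counts. Of the 111 members 95 passed the filter on low counts (87 nuclear, 8 mitochondrial), and 0 of them were called at an adjusted p below 0.05, where 1.82% of all genes tested were called (213 of 11676, 0.719% higher and 1.1% lower). At an unadjusted p below 0.05 the same test marked 14 members, 10 with higher and 4 with lower values with the Hic1 vector, which is 14.7% of members beside 19.1% of all genes tested (9.4% higher, 9.7% lower). DESeq2 called 3 of at most 111 members, Uqcrc1 and mt-Nd2 among them, beside 422 of its 9034 genes (4.67%), and limma voom called 0 beside 1.04%. Without the filter on low counts edgeR called 6 of at most 111 members, a larger share than the 819 of 31962 genes (2.56%) called in that setting. Member log2 fold changes ran from -0.82 to 0.92 with a median of 0.05, beside a median of 0.01 over all genes. Their quartiles, -0.12 and 0.21, lay closer together than the -0.31 and 0.29 of all genes. The 95% interval of the difference lay between -1 and 1 on the log2 scale for 85 of the 95 members, so for these a change of 2-fold or more fell outside the interval. Smaller changes are not excluded: on simulated data of these depths the test found 53 of 106 genes made to differ 2-fold. It made 26 false calls over 11242 genes, beside 53 calls of genes changed 2-fold and 73 of genes changed 4-fold. The false share of its calls in the simulation was thus above the nominal 0.05. The changed genes were drawn from all genes tested, whose median standard error was 0.273 beside 0.158 for members. The simulation therefore does not give the share that would be found among members.

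**Figure D2:**
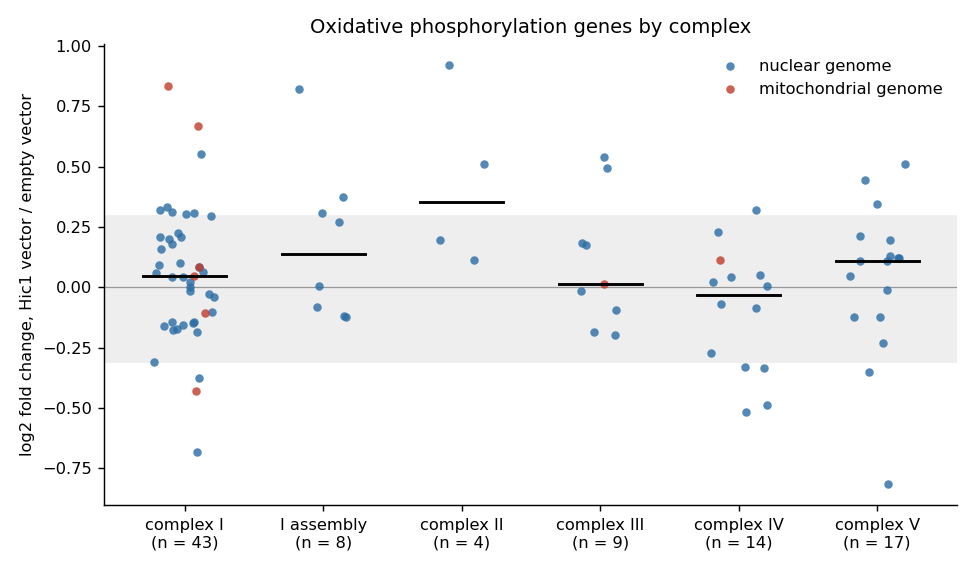
Log2 fold change (Hic1 vector over empty vector, edgeR fit) of each of the 95 tested members, by complex; black bars are medians, colours show the genome that encodes the gene, and the grey band spans the quartiles of all 11676 genes tested. Medians run from -0.03 (complex IV, with the pseudogene Cox6c2 included) to 0.35 (complex II), and no point passes an adjusted p of 0.05.

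The share of gene counts held by these genes as a whole was close in the 2 groups, and the balance between the genomes likewise. Nuclear members took 1.51% and 1.42% of all gene counts with the empty vector and 1.35% and 1.55% with the Hic1 vector, means of 1.47% ± 0.0675 and 1.45% ± 0.138 (SD, n = 2 each). Mitochondrial members took 0.955% and 0.899% against 0.878% and 0.978%, means of 0.927% ± 0.0399 and 0.928% ± 0.0703. In both sums the libraries of the Hic1 vector lay outside the empty vector pair on either side, so the groups overlapped. The ratio of mitochondrial to nuclear counts was 0.631 and 0.634 against 0.650 and 0.632, means of 0.633 ± 0.00192 and 0.641 ± 0.0127, and overlapped as well. An exact permutation test of 2 against 2 libraries cannot pass 0.05, and none is given for these sums. In bulk RNA, fewer cells with the transcripts and less of them per cell cannot be told apart.

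**Figure D3:**
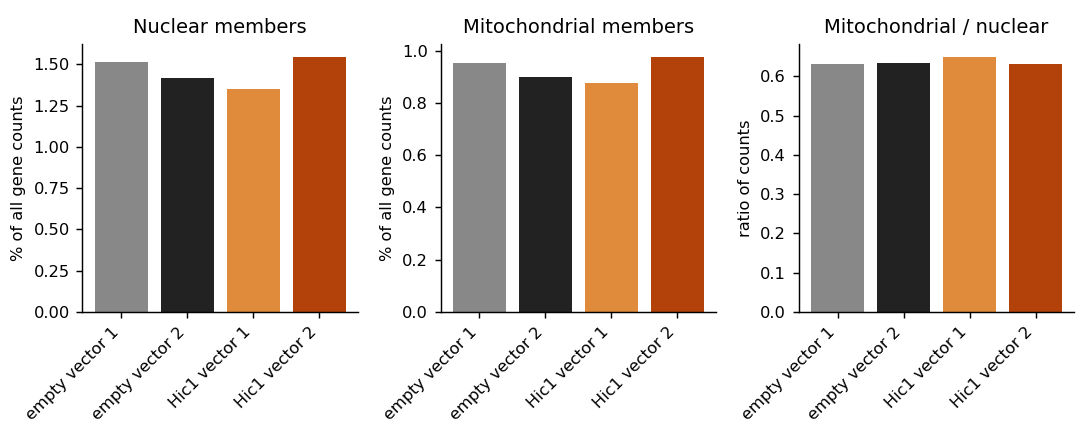
Share of all gene counts taken by nuclear members (left, percent) and mitochondrial members (middle, percent) and the ratio of the 2 sums of counts (right), 1 bar per library. The ratio stays between 0.631 and 0.650 while the shares of the Hic1 vector libraries fall on both sides of the empty vector libraries.

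Among levels per length (CPM per kb of the transcript with the longest coding part), mitochondrial genes led. mt-Nd1, which holds part of the quinone site of complex I, stood at 2404 ± 208 CPM per kb with the empty vector and 2549 ± 273 with the Hic1 vector (SD, n = 2 each). mt-Co1, the catalytic core of complex IV, followed at 2159 ± 47.8 against 2332 ± 13.3, and mt-Nd1 was above mt-Co1 in each of the 4 libraries. mt-Cytb, the cytochrome b of complex III, stood at 1213 ± 55.1 against 1223 ± 64.2 and mt-Nd5, a proton-pumping subunit of complex I, at 813 ± 54.0 against 841 ± 16.6. Between them came the most abundant nuclear member, Cox4i1, a regulatory subunit of complex IV, at 1115 ± 211 against 883 ± 71.4 CPM per kb. Next were the nuclear genes Cox8a, Atp5b, Cox6b1, Cox6a1 and Uqcrh, from 665 to 385 CPM per kb with the empty vector. The 4 mitochondrial genes (mt-Co1, mt-Nd1, mt-Nd5 and mt-Cytb) held 94.2% of the mitochondrial member counts with the empty vector and 94.4% with the Hic1 vector. The part of poly(A) priming and of shared sequence in the order of these levels was not tested.

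Of the 8 measured mitochondrial genes, mt-Nd2 stood closest to a call. This gene (MT:3914-4951) encodes a membrane subunit of complex I and had 308 and 342 counts with the empty vector and 951 and 1060 with the Hic1 vector. Its level was 74.4 and 85.0 CPM against 133.2 and 120.1 CPM, so the groups did not overlap. The log2 fold change was 0.67 ± 0.159 (SE, 95% interval 0.32 to 1.01), and its adjusted p of 0.0570 in edgeR's test was the lowest of all members. Both numbers gave a positive difference, 0.84 within number 1 and 0.50 within number 2. The genes on either side in the genome gave smaller values: mt-Nd1 stood at 2442 and 2160 CPM against 2255 and 2625 (log2 fold change 0.08, interval -0.18 to 0.35), and mt-Co1 at 3283 and 3388 against 3588 and 3617 (0.11, interval -0.12 to 0.34).

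The other mitochondrial genes did not pass either. mt-Nd3, a small complex I subunit with most windows shared, had 16 and 34 counts against 81 and 98 and a log2 fold change of 0.84 whose interval ran from -0.07 to 1.74. mt-Nd5 stood at 1553 and 1414 CPM against 1512 and 1555 (0.05), and mt-Cytb at 1432 and 1343 against 1347 and 1451 (0.01, interval -0.24 to 0.26). For these 2 abundant genes the groups overlapped. mt-Nd4, a proton-pumping subunit, was at 403 and 353 CPM against 337 and 366 (-0.10). mt-Nd6 is the member on the minus strand (MT:13552-14070), where its end overlaps that of mt-Nd5. It stood at 74.9 and 52.4 CPM against 43.4 and 50.8, a log2 fold change of -0.43 ± 0.216 with a difference of -0.78 within number 1 and -0.05 within number 2. The kit does not mark the strand, so mt-Nd6 reads and antisense reads cannot be told apart.

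Complex I contributed 43 tested genes, 37 of them nuclear, with a median log2 fold change of 0.05. The groups were apart with the Hic1 vector above for 12 genes and below for 7 (27.9% and 16.3%), where 26.5% and 24.9% of all genes tested did so. Ndufv1, the flavin subunit that takes electrons from NADH, was at 95.1 and 99.7 CPM against 128 and 117 (0.33), and Ndufs7, an iron-sulfur subunit, at 109 and 109 against 126 and 144 (0.31). Both of these core genes were without overlap between the groups.

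At the other end of complex I was Ndufb4, an accessory subunit of the membrane arm, at 16.9 and 17.4 CPM against 9.38 and 11.7 CPM. Its log2 fold change was -0.68 ± 0.308, and 37.0% of its windows are shared, most with the pseudogene Ndufb4c. Ndufa5, an accessory subunit of the matrix arm, was at 77.3 and 64.1 CPM against 50.3 and 58.6 (-0.37). Ndufa1, the nuclear complex I gene with the highest level per length, was at 167 and 150 CPM against 151 and 187 (0.09), and its groups overlapped. In a grouping chosen after the values were seen, the 7 nuclear core subunits, which form the electron path of the matrix arm, had a median of 0.30 and the 30 tested accessory subunits of 0.03. With the trend on transcript GC content removed from each library the same medians were 0.06 and -0.01.

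The Ndufaf genes encode assembly factors, which help build complex I and do not stay in it. All 8 were tested, with a median of 0.14, and the Hic1 vector libraries lay above the empty vector libraries for 3 (37.5%) and below for 0, beside 26.5% and 24.9% of all genes tested. Ndufaf5, which modifies Ndufs7 during assembly, stood at 9.18 and 11.9 CPM against 16.1 and 21.6 CPM, a log2 fold change of 0.82 ± 0.320 with an adjusted p of 0.190 by edgeR's test. Within the numbers its differences were 0.79 and 0.84. Ndufaf1, an early factor of the membrane arm, was at 17.6 and 22.6 CPM against 23.7 and 28.6 (0.37), and Ndufaf3 at 29.0 and 28.8 against 30.9 and 38.9 (0.27).

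Complex II, succinate dehydrogenase, is wholly nuclear and also a step of the tricarboxylic acid cycle. For all 4 of its genes the groups were apart with the Hic1 vector above, a pattern shown upward by 26.5% of all genes tested, and the median was 0.35. Sdhc (chromosome 1, 171127165 to 171150603, minus strand), a membrane anchor that binds heme and coenzyme Q, stood at 18.6 and 20.6 CPM against 32.9 and 41.8 CPM. That is 19.6 ± 1.44 against 37.4 ± 6.30 CPM (SD, n = 2 each) and a log2 fold change of 0.92 ± 0.247 (interval 0.38 to 1.46), with an adjusted p of 0.0784 by edgeR's test. Sdhd, the other anchor, stood at 76.8 and 88.0 CPM against 120.2 and 114.9 CPM, a log2 fold change of 0.51 ± 0.157 with an adjusted p of 0.111 by edgeR's test. The catalytic subunits lay closer together: Sdha, the flavoprotein, was at 350.4 and 314.1 CPM against 405.2 and 356.9 (0.20), and Sdhb, the iron-sulfur protein, at 270.0 and 281.1 against 301.1 and 295.4 (0.11). Differences within number 1 were 0.21, 0.16, 0.81 and 0.64 for Sdha, Sdhb, Sdhc and Sdhd, and within number 2 they were 0.18, 0.07, 1.01 and 0.38. Every one was above 0, and in each number the anchors exceeded the catalytic subunits.

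Since the 4 genes lay on the same side, the starts of their promoters are shown for 3 of them, with Uqcrc1 of complex III for comparison. The sequences are RefSeq's (GRCm38.p6), 250 bases before to 50 after the gene start, 5′ to 3′ on the gene's strand. Capitals mark CCGGAAG (ETS family, to which Gabpa belongs) or GCGCATG (Nrf1) on either strand; in Uqcrc1 matches of GCGCATG on both strands overlap.
Sdha (chr13:74350191-74350490, minus strand): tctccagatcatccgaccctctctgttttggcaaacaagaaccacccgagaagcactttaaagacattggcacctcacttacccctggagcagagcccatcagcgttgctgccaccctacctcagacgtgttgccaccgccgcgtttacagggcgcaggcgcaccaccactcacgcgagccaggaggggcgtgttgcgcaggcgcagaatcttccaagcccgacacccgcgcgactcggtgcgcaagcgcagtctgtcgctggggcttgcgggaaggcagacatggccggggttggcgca
Sdhb (chr4:140961021-140961320, plus strand): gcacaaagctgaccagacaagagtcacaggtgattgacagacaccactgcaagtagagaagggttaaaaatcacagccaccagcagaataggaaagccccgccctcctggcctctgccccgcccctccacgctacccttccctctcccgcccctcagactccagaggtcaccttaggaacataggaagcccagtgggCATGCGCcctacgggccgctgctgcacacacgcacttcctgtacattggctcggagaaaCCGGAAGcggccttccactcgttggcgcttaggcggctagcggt
Sdhd (chr9:50603800-50604099, minus strand): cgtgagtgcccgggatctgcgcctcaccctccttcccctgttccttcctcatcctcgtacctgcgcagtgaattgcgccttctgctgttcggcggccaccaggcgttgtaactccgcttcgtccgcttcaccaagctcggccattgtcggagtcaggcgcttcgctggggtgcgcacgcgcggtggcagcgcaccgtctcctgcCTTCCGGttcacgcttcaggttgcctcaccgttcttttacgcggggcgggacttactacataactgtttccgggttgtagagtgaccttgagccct
Uqcrc1 (chr9:108936398-108936697, plus strand): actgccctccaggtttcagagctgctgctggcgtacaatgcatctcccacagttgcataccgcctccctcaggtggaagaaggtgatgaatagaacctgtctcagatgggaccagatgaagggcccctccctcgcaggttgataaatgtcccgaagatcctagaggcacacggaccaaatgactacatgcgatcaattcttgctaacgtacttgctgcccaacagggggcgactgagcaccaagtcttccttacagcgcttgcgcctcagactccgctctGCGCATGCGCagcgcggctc
Sdhb held both motifs, Sdhd the ETS motif, Uqcrc1 the Nrf1 motif and Sdha neither. Promoters of 76 nuclear members were matched by symbol, and a gene was counted if any of its promoters held the motif. CCGGAAG was in 25% of these members, beside 9.93% of all 27025 genes with a promoter and 23.1% of the 8467 tested genes with a promoter. GCGCATG was in 19.7%, beside 4.41% and 8.60%, and the YY1 motif AAGATGG in 15.8%, beside 7.28% and 9.13%. The Hic1 motif GGGCANCC was in 6.58% of these members, beside 6.28% and 7.80%. Members that held a motif had median log2 fold changes of 0.06 (ETS), 0.11 (Nrf1), 0.04 (YY1) and -0.16 (Hic1, 5 genes), beside 0.06, 0.04, 0.06 and 0.06 for members without it. A match describes letters in a window and is no measured binding site.

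Complex III, which hands electrons from coenzyme Q to cytochrome c, had 9 tested genes with a median of 0.01 and values on both sides. Its subunit Cyc1 is not among the 9, and stood at 126 and 137 CPM against 161 and 167 CPM (0.32, not called). Uqcrc1, a core protein of the matrix side, stood at 294.8 and 324.6 CPM against 438.2 and 434.4 CPM. The groups were 310 ± 21.02 and 436 ± 2.66 CPM (SD, n = 2 each), with a log2 fold change of 0.49 ± 0.130 (interval 0.21 to 0.78) and an adjusted p of 0.0736 by edgeR's test. Uqcr11, a small subunit of the complex, stood at 56.3 and 57.9 CPM against 80.9 and 85.1 CPM (0.54 ± 0.170, adjusted p 0.119 by edgeR's test). In contrast Uqcrh, the hinge protein that docks cytochrome c, was at 342 and 358 CPM against 272 and 339 (-0.20), and Uqcrb, which helps form the quinone site, at 94.2 and 87.2 against 73.5 and 85.8 (-0.19). Within numbers 1 and 2 the differences were 0.57 and 0.42 for Uqcrc1 and 0.52 and 0.55 for Uqcr11.

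Complex IV, cytochrome c oxidase, had 14 tested genes and the lowest median, -0.03. The 14 include Cox6c2, a processed pseudogene with 52.7% of its windows shared with Cox6c. Cox6c2 had 10 and 11 counts with the empty vector and 11 and 17 with the Hic1 vector. The median without it is not given. Hic1 vector libraries lay below the empty vector libraries for 6 genes (42.9%) and above for 3 (21.4%), beside 24.9% and 26.5% of all genes tested. Cox4i1, introduced above, stood at 967.1 and 738.3 CPM against 636.9 and 714.2 CPM, a log2 fold change of -0.34 ± 0.146 with an adjusted p of 0.236 by edgeR's test. Cox6c stood at 322.1 and 271.1 CPM against 218.8 and 252.5 (-0.33), and Cox7b at 242 and 218 against 178 and 202 (-0.27), both small subunits of the membrane domain. In these 3 genes number 1 gave -0.60, -0.56 and -0.44 and number 2 gave -0.05, -0.10 and -0.11, so most of the difference came from libraries numbered 1. On the other side, Cox7a2l, a factor that joins complexes III and IV into supercomplexes, was at 200.9 and 215.5 CPM against 235.7 and 284.5 (0.32). Nuclear complex IV genes together took 0.351% and 0.305% of counts with the empty vector and 0.268% and 0.319% with the Hic1 vector, which overlap.

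Tissue-restricted forms of these subunits were near 0. Cox4i2, Cox6a2, Cox7a1, Cox8b, Cox8c and the Ndufa4 relative Ndufa4l2 had at most 8 counts in a library and were not tested. Their common partners were among the abundant members, as Cox8a at 378 and 353 CPM against 355 and 387 (0.02) and Cox6a1 at 249 and 228 against 272 and 288 (0.23). Cox6b2, the testis form of Cox6b, was tested at 1.93 and 1.74 CPM against 1.12 and 1.25 (-0.51, interval -1.87 to 0.84), the lowest level per length of all tested members. The remaining untested nuclear genes were Ndufb4c, Ndufs6b, Ndufa11b, Cox7b2 and a second row named Atp5o.

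Complex V had 17 tested genes, all nuclear, and a median of 0.11. Hic1 vector libraries lay above for 8 (47.1%) and below for 4 (23.5%), beside 26.5% and 24.9% of all genes tested. Atp5l, the g subunit, which helps pair ATP synthases at the edges of cristae (chromosome 9, 44912557 to 44920742, minus strand), stood at 48.8 and 42.2 CPM against 26.6 and 24.8 CPM. Its log2 fold change was -0.82 ± 0.221 (interval -1.30 to -0.34), the lowest log2 fold change of all tested members, with an adjusted p of 0.0797 by edgeR's test. Atp5md, another membrane subunit, was at 94.7 and 76.0 CPM against 59.8 and 73.7 (-0.35). Atp5d, the delta subunit of the central rotor, lay the other way at 256.0 and 248.0 CPM against 325.5 and 360.5 CPM (0.44 ± 0.135, adjusted p 0.107 by edgeR's test), as did its partner Atp5e at 150 and 128 against 168 and 185 (0.35).

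The catalytic head showed smaller values. Atp5b, the catalytic beta subunit, was at 1013 and 904 CPM against 1067 and 1018 (0.12), Atp5a1, the alpha subunit, at 759 and 809 against 921 and 894 (0.21), and Atp5c1, the gamma shaft, at 531 and 498 against 420 and 524 (-0.12). Atp5g2, one of the genes for the rotating c ring, was at 11.8 and 13.9 CPM against 17.9 and 19.0 (0.51). Grouped by role after the values were seen, the 5 head and rotor genes had a median of 0.21, the 3 c ring genes 0.20 and the 9 tested stalk and membrane genes -0.01. With the GC trend removed these were 0.20, 0.28 and -0.09.

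**Figure D4:**
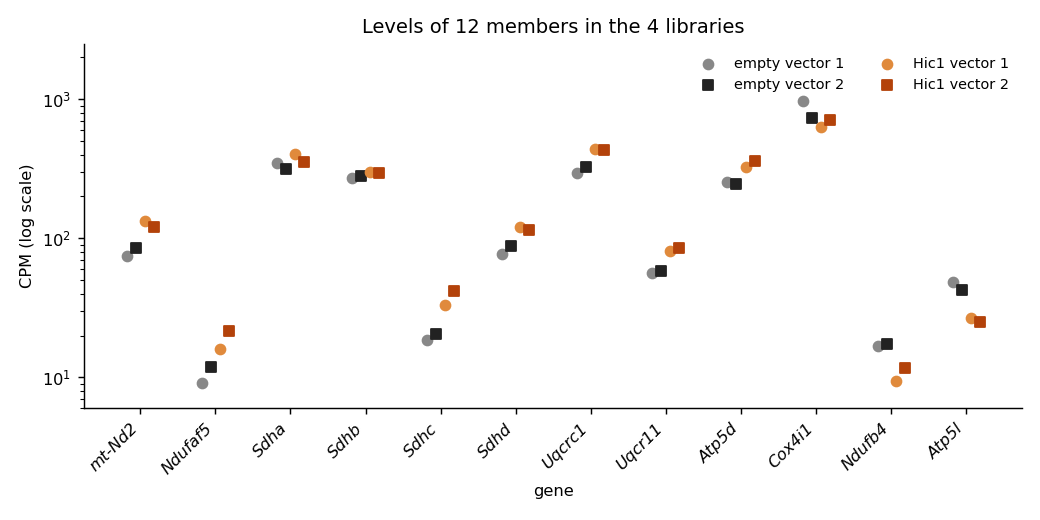
Level (CPM, log scale) of 12 members in each of the 4 libraries: members of low p in the complexes and all 4 Sdh genes. For all 12, most of them shown for their low p, the groups are apart (as for 51.4% of all genes tested), with the Hic1 vector higher in 9 and lower in Cox4i1, Ndufb4 and Atp5l.

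Counted over all complexes, the groups did not overlap for 53 of 95 members (55.8%, beside 51.4% of all genes tested). Members above numbered 33 (34.7%, beside 26.5%) and members below 20 (21.1%, beside 24.9%). The pairs of libraries did not tell the same story: within number 1 the median member difference was -0.09 and within number 2 it was 0.15, while the medians over all genes were 0.02 and 0.01. Members above 0 numbered 39 of 95 within number 1 and 68 within number 2, beside 5976 and 5901 of all 11676 genes tested. Nuclear members gave -0.09 and 0.17 and mitochondrial members -0.06 and 0.12, so both genomes were shifted to the same side within a pair. In both pairs 35 members were above 0 and 23 were below, beside 4057 and 3854 of all 11676 genes tested.

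**Figure D5:**
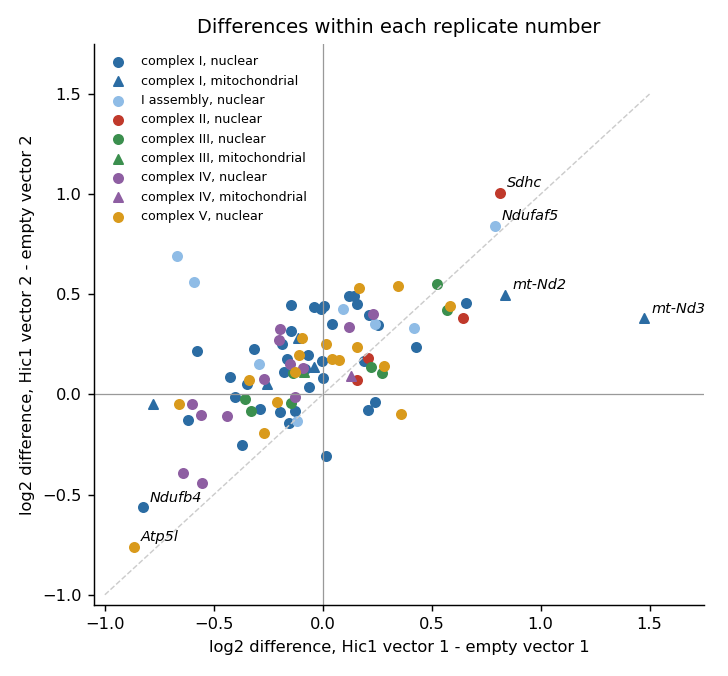
Log2 difference, Hic1 vector minus empty vector, within replicate number 1 (x axis) and within number 2 (y axis) for the 95 tested members, coloured by complex; triangles are mitochondrial genes and the dashed line marks equal differences. Most points lie above the dashed line, since the medians are -0.09 and 0.15, and Sdhc, Ndufaf5 and mt-Nd2 are far from 0 in both directions of the plot on the upper right, with Atp5l and Ndufb4 on the lower left.

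Sequence composition went along with these values. Over the 87 nuclear members log2 fold change and transcript GC content had a Pearson r of 0.395 and a Spearman rho of 0.444, a description over genes of the same 4 libraries, beside 0.254 and 0.320 over all genes. Nuclear members above 0 had a median GC of 52.4% and those below 0 of 48.5%. The tested mitochondrial genes had 36.4%. With the GC trend removed the mitochondrial median moved from 0.07 to 0.24, and still 0 members were called, beside 0.839% of all genes. Transcript length showed r of 0.05 over the nuclear members.

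Genes around the complexes were taken from 6 lists. Of 20 tested genes for electron carriers and coenzyme Q, 0 passed in either direction, with a median of 0.21. Coq8a, a kinase-like protein needed for coenzyme Q synthesis, stood at 2.66 and 3.48 CPM against 9.10 and 11.6 CPM (1.65 ± 0.423, adjusted p 0.0683 by edgeR's test), and Coq9, a lipid carrier of that pathway, at 40.8 and 33.5 against 61.5 and 59.5 (0.70). Of 41 assembly factors outside the naming rule 0 passed, with a median of 0.20, among them Uqcc2 for complex III at 22.2 and 27.6 CPM against 41.3 and 46.4 (0.81) and Atpaf2 for complex V at 34.0 and 31.6 against 49.4 and 58.6 (0.71). Of 19 genes of the tricarboxylic acid cycle 0 passed, with a median of 0.11, including Idh2 at 25.4 and 33.8 CPM against 63.0 and 45.9 (0.87) and Mdh2 at 203 and 231 against 300 and 306 (0.48). For each of these 5 genes, named for their low p, the groups did not overlap, as for 51.4% of all genes tested.

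Of 27 genes that maintain or transcribe mitochondrial DNA, 0 rose and 1 fell. Polg, the catalytic subunit of the mitochondrial DNA polymerase, stood at 49.98 and 43.5 CPM against 22.5 and 24.3 CPM and fell by 0.99 on the log2 scale (SE 0.222, adjusted p 0.0481 by edgeR's test). That call was lost in 7 of 16 alternatives, among them the omission of any single library, with adjusted p from 0.0618 to 0.312 by edgeR's test over those 4 omissions. Polrmt, the mitochondrial RNA polymerase, was at 30.4 and 30.8 CPM against 55.9 and 45.9 (0.73, not called), and Tfam, which packages mitochondrial DNA, at 51.9 and 63.1 against 46.5 and 49.9 (-0.25).

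Of 11 tested nuclear regulators of these genes 1 rose and 0 fell, and the list's median was -0.02. Myc, a transcription factor of cell growth that acts on many mitochondrial genes, rose from 17.1 and 19.4 CPM to 51.5 and 41.9 CPM, a log2 fold change of 1.34 ± 0.239 with an adjusted p of 0.0238 by edgeR's test. Without empty vector replicate 1 its value was 1.26, and with the GC trend removed 1.15, and it was not called in either. Gabpa, which binds the ETS motif, was at 79.9 and 50.2 CPM against 36.1 and 47.0 (-0.64), with -1.14 within number 1, -0.09 within number 2 and -0.95 to -0.27 over the omission of each library. Nrf1 was at 106 and 115 against 108 and 133 (0.13). Of the 6 tested mitochondrial RNAs outside the rule 0 passed. The large ribosomal RNA mt-Rnr2 was at 35372 and 24687 CPM against 23644 and 16076 CPM (-0.60 ± 0.236), with differences of -0.58 and -0.62 within the numbers. Over the omission of each library it ran from -0.90 to -0.31, and without Hic1 vector replicate 1 it was called at -0.90. The small ribosomal RNA mt-Rnr1 was at 175 and 146 against 128 and 138 (-0.27). The mitochondrial messenger RNAs lay between 0.878% and 0.978% of counts in the same libraries.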

How the data were processed

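Messenger RNA of 4 libraries (2 empty vector, 2 Hic1 vector) was measured. The deposited raw table holds the authors' read counts per gene as whole numbers. The submitters' processing notes name the genome mm10, featureCounts 1.5.3, STAR 2.5.2b, DESeq2 1.3.2 and Trimmomatic 0.38 without a role. The sources used here do not give the annotation release, the strand setting or the treatment of reads with several positions. A deposited normalized table was not used.

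Gene tests used edgeR 4.0.16 (R 4.3.3) on all genes kept by filterByExpr (minimum count 10, minimum total 15): TMM scaling, a fit by group, and the robust quasi-likelihood F test with prior count 2. P-values were Benjamini-Hochberg adjusted over 11676 genes and called below 0.05. The standard error is the log2 fold change divided by the root of F. CPM uses TMM-scaled library sizes. With 2 libraries per group p-values measure the spread between these samples, and PCR copies of a molecule were not marked, so reads are not independent. DESeq2 1.42.0 and limma 3.58.1 (voom) were alternatives, with other scalings and filters, each library left out, a GC trend removed by loess (span 0.3) and a replicate block. Removal of ribosomal RNA and repeats from the fit, and of mitochondrial genes with 50% or more shared windows from the sums, were chosen after seeing the data. Transcripts, GC and shared 50-base windows came from GENCODE M21 (GRCm38), promoters from RefSeq (GRCm38.p6). Sdhc is not among the promoters shown. On simulated data of these depths the test found 73 of 86 genes changed 4-fold and made 26 false calls over 11242 genes. With the 53 calls at 2-fold, the false share of calls there was above the nominal 0.05. Other versions were Python 3.11.15, pandas 2.3.3, scipy 1.17.1 and matplotlib 3.10.9.

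Members, gene lists and the naming rule were chosen with earlier results of these data known. The rule names called members, up to 6 of lowest p and the 2 of highest level per length in each complex and genome, all mitochondrial and Sdh members, tissue-restricted forms with partners, and up to 3 genes of lowest p in each other list. Tfam and Nrf1 were named outside it, after their values were seen. Some items the rule names are not reported here.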

Additional observations from a re-analysis of the deposited data

How the results depend on the processing

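No tested value changed direction past a threshold. The count of called members was 0 with DESeq2 size factors or library sizes as scaling, nuclear-only scaling, the stricter filter, limma voom, edgeR without robust dispersion, the GC trend removed, ribosomal RNA removed, and each library left out (0 to 0). It was 6 without a filter on low counts (Atp5d, Sdhc, Sdhd, Uqcrc1 and mt-Nd2 among them, all higher), where 2.56% of all genes were called. By DESeq2 it was 3, where 4.67% were called. With the replicate block the count of called members was 6 (5 higher and Atp5l lower), where 6.8% of all genes were called. With the block and the GC trend removed it was 4 (Sdhc, Sdhd and mt-Nd2 higher, Cox4i1 lower), where 5.56% were called. mt-Nd2 was called in all 4 of those settings. The causes were not tested. The labels do not say that a number marks a shared animal, and same-numbered libraries deviated together with r = 0.239 over 11676 genes. The block called 794 genes in all, against 213.

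The mitochondrial median was 0.24 with the GC trend removed, with and without the replicate block. Leaving out each library gave medians of -0.02 to 0.11 for nuclear and for mitochondrial members, -0.02 to 0.10 for complex I, -0.03 to 0.36 for its assembly factors, 0.30 to 0.42 for complex II, -0.05 to 0.07 for complex III, -0.12 to 0.09 for complex IV and 0.04 to 0.13 for complex V. The difference in mitochondrial share then ran from -0.0487 to 0.0507 percentage points and in nuclear share from -0.114 to 0.0819, and that of their ratio from -0.00076 to 0.0171. Hic1 was not called by limma voom (4.68) or without empty vector replicate 1 (4.34), and ran from 3.81 to 5.02 over the omissions. The 2 calls in the other lists became 1 with DESeq2 size factors, limma voom, no robust dispersion or the GC trend removed, 10 of 124 without a filter (2.56% of all genes) and 10 of 124 with the replicate block (6.8% of all genes), and 0 to 2 over the omissions. Over 846 values of 53 named genes under 16 alternatives, 8 genes changed sign in 21 values. By CPM in place of level per length, 7 of the 10 leading members were shared. The 16 members under the filter on low counts, with at most 8 counts in a library, could not be tested.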
